A study of Homo sapiens with 12 samples.

Results

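The genes described here copy DNA during S phase. They are 42 genes for the replicative helicase and its loading and activation, the sliding clamp and its loader, the replicative polymerases and primase, the supply of deoxynucleotides, lagging-strand joining, chromatin assembly behind the fork, and the S-phase regulators DTL and E2F1. A gene was taken as measured where a probe of the array carried its symbol in the platform annotation. This held for 41 of the 42, all except POLD2, with 58 probes in all. All 41 were among the 13516 genes tested, since each had a probe above background on at least 3 of the 12 arrays. CDC6, E2F1 and GINS1 were the members with an array at or below background, and they were above it on 11, 8 and 6 arrays.

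RNA came from HDLM-2, a long-established line of human Hodgkin lymphoma, 24 h after treatment, in 4 groups of 3 samples. The combination group received perifosine at 10 µM together with sorafenib at 5 µM, another group received sorafenib alone at 5 µM, another received perifosine alone at 10 µM, and the control group is labelled as control with no drug or vehicle named. Sorafenib is an inhibitor of RAF kinases and of several receptor tyrosine kinases, and perifosine is an alkylphospholipid that inhibits AKT signalling. The labels do not state whether the 3 samples of each group were grown apart, so p-values reflect only how far these samples scattered, possibly for technical reasons alone, and a single line is 1 cell source. Each array had 21810 to 21852 probes above background and a median deposited signal of 216.4 to 216.6. Log2 signals of pairs of arrays correlated at 0.988 to 0.9943 within groups (Pearson's r across the 13516 genes, which are not independent replicates). Between groups they correlated at 0.9866 to 0.9945, about the same range. Of 15 Hodgkin cell markers fixed for the check, 12 were above background on all 12 arrays, IL5 on 6, CD70 on 2 and IL13 on none. Of the markers of B cells, T cells, myeloid cells, and fibroblasts and endothelium, 1 of 8, 1 of 8, 3 of 8 and 1 of 8 with a probe were above background on all arrays. These were MS4A1, then CD2, which was bright with group means of 13.66 to 13.80, then CSF1R, CD68 and FCGR3A, and PECAM1. PAX5, CD22 and BLK of the B cell list, CD5 and TRAT1 of the T cell list, S100A9 of the myeloid list, and COL3A1, LUM, VWF and CDH5 of the last list were above background on none.

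Replication starts from origins that are licensed in G1, when the origin recognition complex (ORC), CDC6 and CDT1 load the hexameric MCM helicase onto DNA. In S phase CDC45 and the GINS complex join the MCM ring to form the active helicase, polymerase alpha with its primase lays down primers, and polymerases delta and epsilon extend them on the PCNA clamp. Many of these genes are transcribed at the G1/S boundary under E2F transcription factors, which the retinoblastoma proteins hold in check until cyclin-dependent kinases act. RNA of a whole culture was measured, so fewer cells in S phase and less of these RNAs in each cell cannot be told apart.

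The 300-base promoters of 5 members are shown because these members are described array by array below and their windows differ in the E2F sites they hold. They run 5′ to 3′ on the strand of the gene, from 250 bases before to 50 after the first start listed by RefSeq (GRCh38.p14), with the matches of an E2F site (spelled TTCCCGC or as TTGGCGC or as TTCGCGC or as TTGCCGC, all read on both strands) and of a CCAAT box (CCAAT, both strands) in capitals. The RRM2 window is chr2:10122489-10122788 (+), the POLA1 window chrX:24693668-24693967 (+), the ORC1 window chr1:52404374-52404673 (-), the MCM2 window chr3:127598161-127598460 (+) and the FEN1 window chr11:61792661-61792960 (+).
RRM2: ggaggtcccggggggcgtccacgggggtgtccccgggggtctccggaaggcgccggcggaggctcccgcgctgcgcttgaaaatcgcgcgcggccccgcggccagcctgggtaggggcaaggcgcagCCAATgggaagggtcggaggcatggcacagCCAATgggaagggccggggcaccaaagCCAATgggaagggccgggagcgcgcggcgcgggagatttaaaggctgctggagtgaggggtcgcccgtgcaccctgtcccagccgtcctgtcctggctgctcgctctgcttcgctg
POLA1: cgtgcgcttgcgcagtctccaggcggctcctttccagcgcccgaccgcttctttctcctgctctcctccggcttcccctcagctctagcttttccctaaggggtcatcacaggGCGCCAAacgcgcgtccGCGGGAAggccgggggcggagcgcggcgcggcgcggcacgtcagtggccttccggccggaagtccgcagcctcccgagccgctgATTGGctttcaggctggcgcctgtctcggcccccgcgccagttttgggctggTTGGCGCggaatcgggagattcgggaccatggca
ORC1: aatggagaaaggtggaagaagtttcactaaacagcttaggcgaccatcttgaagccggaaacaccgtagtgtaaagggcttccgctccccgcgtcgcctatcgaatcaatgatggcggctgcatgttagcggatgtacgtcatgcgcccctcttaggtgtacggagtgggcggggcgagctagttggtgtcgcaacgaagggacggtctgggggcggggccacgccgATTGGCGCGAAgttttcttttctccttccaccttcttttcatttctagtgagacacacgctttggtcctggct
MCM2: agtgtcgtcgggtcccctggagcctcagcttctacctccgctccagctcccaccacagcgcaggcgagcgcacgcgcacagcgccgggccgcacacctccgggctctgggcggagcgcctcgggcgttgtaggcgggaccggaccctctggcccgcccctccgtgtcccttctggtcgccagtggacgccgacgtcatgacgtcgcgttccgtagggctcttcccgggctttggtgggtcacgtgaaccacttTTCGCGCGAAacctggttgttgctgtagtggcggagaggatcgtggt
FEN1: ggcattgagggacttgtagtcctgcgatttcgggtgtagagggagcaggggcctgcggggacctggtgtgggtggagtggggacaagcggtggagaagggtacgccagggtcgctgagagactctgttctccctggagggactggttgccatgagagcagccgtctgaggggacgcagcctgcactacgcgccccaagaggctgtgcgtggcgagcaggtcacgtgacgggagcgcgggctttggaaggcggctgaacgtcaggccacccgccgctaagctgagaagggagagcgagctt
The RRM2 window held 3 CCAAT boxes and no E2F match, although 1 of the 2 windows listed for this gene has an E2F match. The POLA1 window held 3 E2F matches and 1 CCAAT box. In ORC1, 2 E2F matches on opposite strands overlapped each other and a CCAAT box, and in MCM2, 2 E2F matches on opposite strands overlapped. FEN1 held neither motif.

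Promoter windows were found for 37 of the 42 members (MCM4, MCM5, GINS4, RPA2 and RPA3 are named only). An E2F match lay in 28 of the 37 (75.7%), against 13.1% of all 27305 promoters of the same length. A CCAAT box lay in 22 (59.5%), against 35.7% of all promoters. Another motif, the cell cycle homology region of many G2 and mitosis genes (CHR, written TTTGAA or TTCGAA, both strands), lay in 2 members (5.41%), against 16.6% of all promoters. CDC45, FEN1, MCM10, ORC6, POLD1, POLD2, PRIM2, RRM2 and TK1 had no E2F match in this window. These shares describe letters in a window and show no binding.

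Across the groups, the replication genes had slightly lower signals in cells given sorafenib, with or without perifosine, and RRM2, the small subunit of ribonucleotide reductase, was the 1 member that passed the test. Taking the 6 arrays with sorafenib against the 6 without, 38 of the 41 members had a change below 0, with a median of -0.14 on the log2 scale. The count is 37 without GINS1, whose direction is not settled because no combination array was above background for it. Over all 13516 genes, 51% had a change below 0 and the median was -0.00. RRM2 fell by 0.58 ± 0.09 (SE) on the log2 scale, to 0.671 of its level without sorafenib. At an adjusted p of 0.05 (limma with Benjamini-Hochberg adjustment over all genes tested), 1 member of 41 fell and none rose, where 3.81% of all genes were called, 1.21% falling and 2.6% rising. At an unadjusted p of 0.05, 10 members were lower and none higher, where 8.47% of all genes were lower and 9.64% higher.

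The same reading on each array, as the median over the 41 members of the log2 signal minus the mean of the control arrays, was -0.168, -0.151 and -0.140 on the combination arrays, -0.116, -0.089 and -0.171 on the sorafenib arrays, 0.009, -0.045 and 0.037 on the perifosine arrays, and 0.002, -0.007 and 0.007 on the control arrays. All 6 arrays with sorafenib lay below all 6 without. The control arrays are set against their own mean and so lie near 0 by construction, which leaves the perifosine arrays as the separate reading without sorafenib. On the combination arrays 33, 39 and 32 of the 41 members were below their control mean, on the sorafenib arrays 30, 27 and 29, and on the perifosine arrays 20, 22 and 18. The median of 23 housekeeping genes read the same way lay between -0.04 and 0.02 on all 12 arrays.

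**Figure D1:**
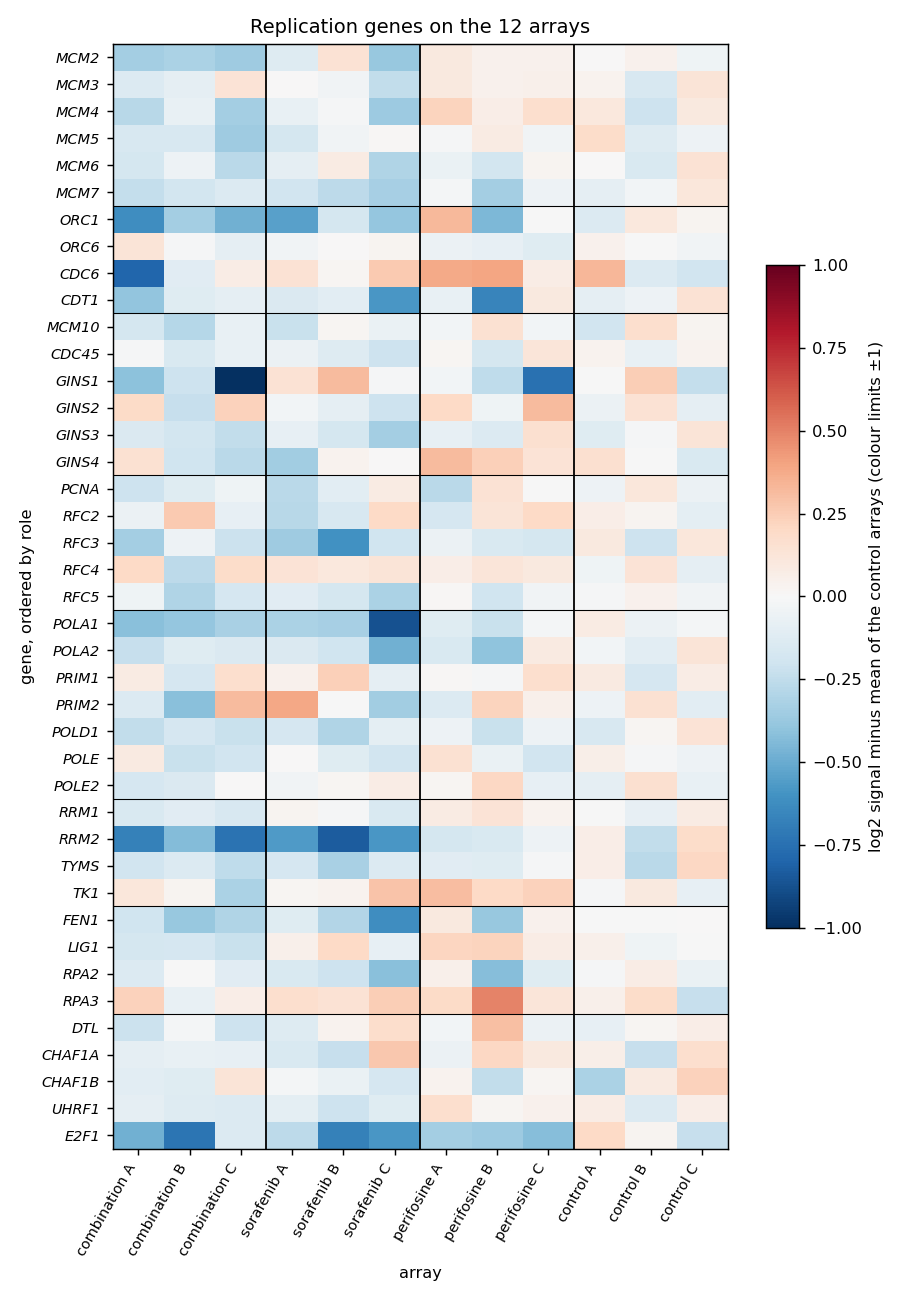
Log2 signal of the 41 measured members (rows, ordered by role) minus the mean of the 3 control arrays, on each of the 12 arrays (columns, combination, sorafenib, perifosine and control from left to right), with colour limits of ±1. Blue prevails in the 6 columns with sorafenib, where 27 to 39 of 41 members are below their control mean, against 18 to 23 in the other 6 columns. The 3 control columns are set against their own mean.

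Ribonucleotide reductase makes deoxynucleotides from ribonucleotides, and RRM2 is its small subunit, which is made in S phase. RRM2 had log2 signals of 13.17, 13.41 and 13.11 in combination cells, 13.28, 13.02 and 13.26 in sorafenib cells, 13.67, 13.70 and 13.79 in perifosine cells, and 13.91, 13.60 and 14.03 in control cells. The deposited linear signals behind them were 9331.2, 11020.9 and 8938.9 in combination cells, 10079.9, 8415.9 and 9943.9 in sorafenib cells, 13186.7, 13396.4 and 14315.6 in perifosine cells, and 15528.2, 12539.5 and 16825.6 in control cells. Every array with sorafenib was below every array without it, and combination and sorafenib arrays overlapped, as did perifosine and control arrays. The group means were 13.23 ± 0.16, 13.19 ± 0.15, 13.72 ± 0.06 and 13.85 ± 0.22 (SD, n = 3 each) in combination, sorafenib, perifosine and control cells.

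In sorafenib against control cells RRM2 fell by 0.66 ± 0.13 on the log2 scale, to 0.633 of the control level (limma adjusted p = 0.0379). It was the 1 member of 41 called in this comparison, in which 0.829% of all genes were called, 0.281% as lower and 0.547% as higher. In combination against control cells its change was -0.62 ± 0.13 (limma adjusted p = 0.0621), and in combination against perifosine cells -0.49 ± 0.13 (limma adjusted p = 0.124). No member was called in combination against control cells, where 0.629% of all genes were, 0.155% as lower and 0.474% as higher. No member was called in combination against perifosine cells, where 0.718% of all genes were, 0.163% as lower and 0.555% as higher. Over the 6 arrays with sorafenib against the 6 without, the fall had a 95% interval of -0.78 to -0.37 and a limma adjusted p of 0.0047. The moderated F test over the 4 groups also called RRM2 alone among the members (limma adjusted p = 0.0408), where 0.962% of all genes were called.

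The fall over 6 against 6 arrays kept its call when any 1 array was left out, with limma adjusted p from 0.0032 to 0.0188 and a change from -0.64 to -0.53. The call against the control did not. It held without control B, perifosine B or combination B, with limma adjusted p of 0.0318, 0.039 and 0.0386. Without control A or C it was 0.135 and 0.153, and without sorafenib A, B or C 0.0786, 0.145 and 0.077. Without perifosine A or C it was 0.0615 and 0.051, and without combination A or C 0.06 and 0.0516. The F test called RRM2 only without control B or combination B among these 12 fits, and combination against control cells called it only without control B (limma adjusted p = 0.0362).

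**Figure D2:**
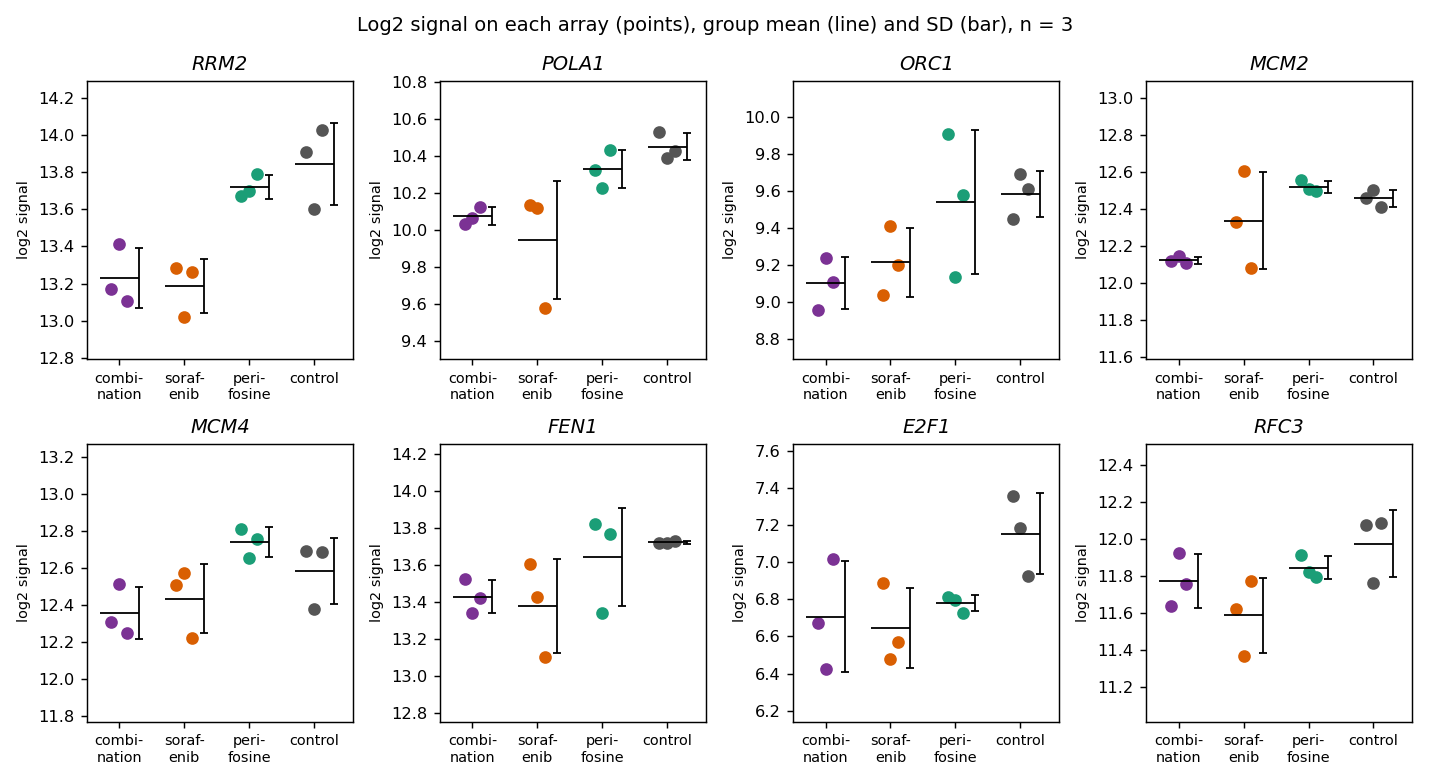
Log2 signal on each array (points) with the group mean (line) and SD (bar, n = 3) for the 8 members with the largest moderated t over the 6 arrays with sorafenib against the 6 without. All panels span the same log2 range, with axes that start at different values. RRM2 and POLA1 have all 6 arrays with sorafenib below all 6 without, and the other 6 genes have overlapping arrays.

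Perifosine alone was not told apart from the control by any gene test. No member and no gene was called (0 of 13516, smallest limma adjusted p 0.991), and 277 genes were lower and 268 higher at an unadjusted p of 0.05. These are 2.05% and 1.98% of the genes tested, and among the members 1 was lower and none higher. A change below 0 was found for 21 of the 41 members, with a median of -0.01, and for 50.3% of all genes. RRM2 had a change of -0.13 ± 0.13. The largest member changes were -0.38 ± 0.16 for E2F1 and 0.28 ± 0.21 for CDC6 (limma adjusted p = 0.991 for both). E2F1 and ORC6 had all perifosine arrays below all control arrays, and TK1 and LIG1 had them above, that is 2 members each way, where 4.32% and 4.24% of all genes did so.

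The combination set against the control gave the members a median change of -0.16, with 35 of 41 below 0, where 49.9% of all genes were. Arrays did not overlap for 13 members, all lower, namely RRM2, ORC1, MCM2, POLA1, MCM5, FEN1, POLD1, LIG1, MCM7, GINS3, RFC5, RRM1 and POLA2, where 9.41% of all genes were lower and 11.2% higher in this way. At an unadjusted p of 0.05, 6 members were lower and none higher, where 5.28% and 6.84% of all genes were. With GINS1, which was above background on no combination array, set at the background level there, the changes lay between -0.62 for RRM2 and 0.07 for RPA3.

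The combination and sorafenib alone were also not told apart. No gene was called (smallest limma adjusted p 0.603, with 383 genes, 2.83%, lower and 434, 3.21%, higher at an unadjusted p of 0.05, among them 2 members lower and none higher). A change below 0 was found for 22 of 41 members, with a median of -0.00, and for 48.6% of all genes. For RRM2 the difference was 0.04, with a 95% interval of -0.25 to 0.33, which holds differences of either sign. GINS1 and LIG1 had all combination arrays below all sorafenib arrays and RPA2 had them above, where 5.59% and 6.11% of all genes did so.

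Sorafenib was set against its absence on separate arrays, once without perifosine (sorafenib against control) and once with it (combination against perifosine). These comparisons share no array, but deviations from group means correlated at 0.39 between perifosine B and sorafenib C. Each of these arrays is in a different comparison. The members' median change was -0.10 without perifosine, with 31 of 41 below 0, and -0.12 with it, with 37 of 41 below 0, or 36 without GINS1, where 51% and 50.2% of all genes were. In both, 27 members (65.9%) had a change below 0 and none a change above 0, where 29.1% of all genes were below 0 in both and 56.9% had the same sign. With 31 and 37 of 41 below 0, an overlap of 27 is the smallest possible. The overlap therefore shows no agreement gene by gene beyond the separate counts. Arrays did not overlap for 10 members in sorafenib against control cells, all lower, where 10.4% of all genes were lower and 11.4% higher in this way. These were RRM2, POLA1, E2F1, MCM7, FEN1, ORC1, RPA2, POLA2, RFC5 and CDT1. In combination against perifosine cells this held for 13 members, all lower, where 8.32% of all genes were lower and 9.88% higher. These were RRM2, LIG1, MCM2, MCM4, TK1, RRM1, MCM5, UHRF1, POLA1, MCM10, GINS3, CHAF1A and TYMS, so that RRM2 and POLA1 were in both counts. At an unadjusted p of 0.05, 6 members were lower and none higher without perifosine, where 7.06% and 7.93% of all genes were. With perifosine 9 were lower and none higher, where 5.83% and 7.47% of all genes were.

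**Figure D3:**
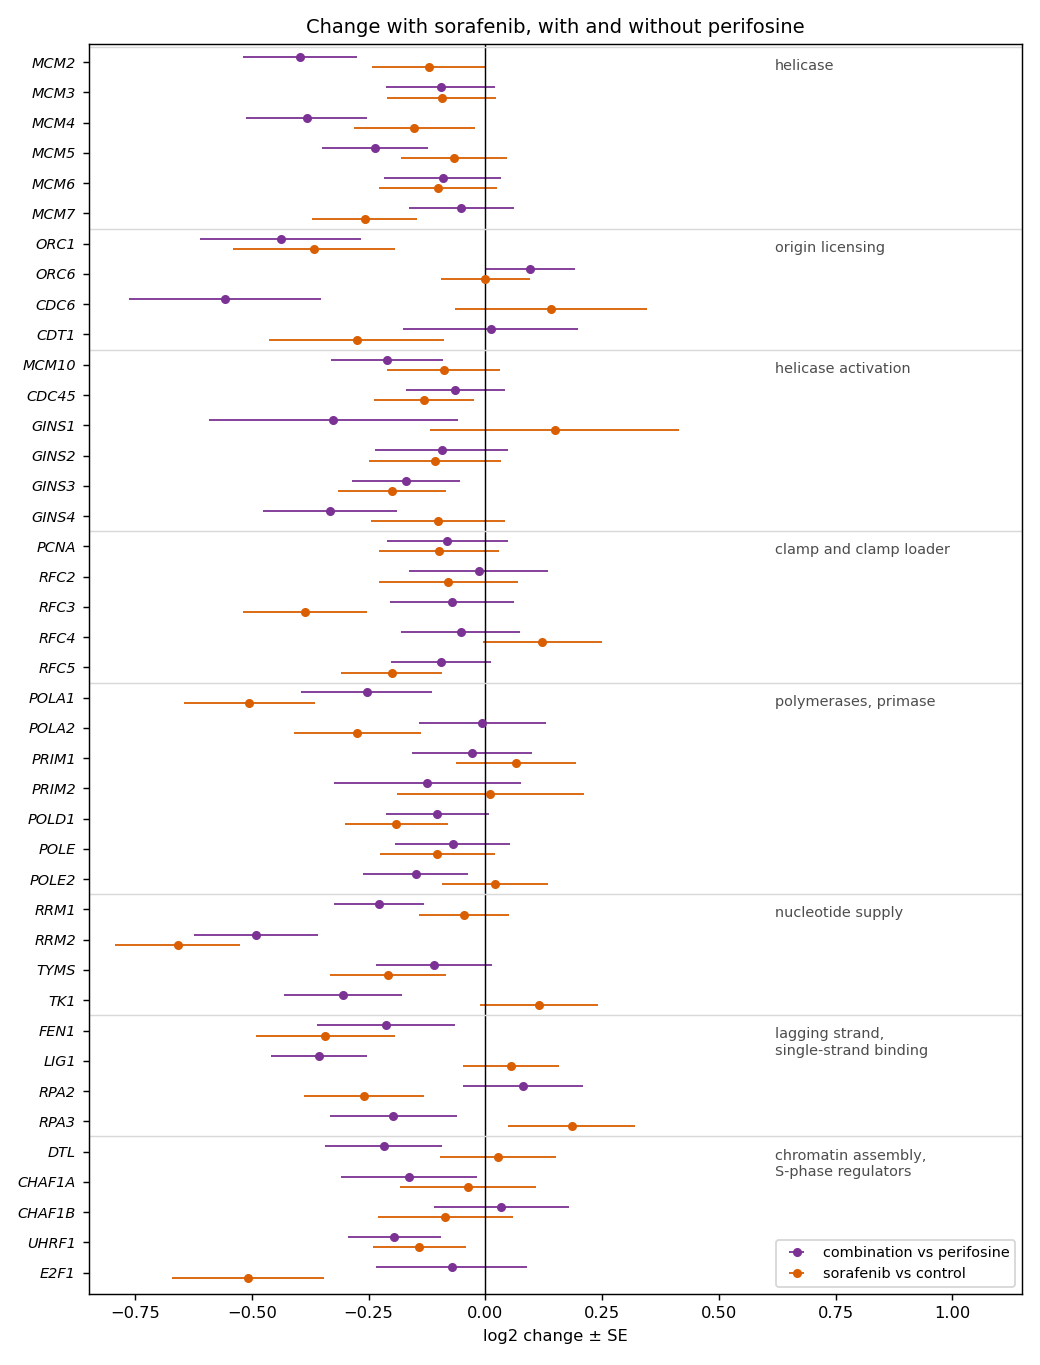
Log2 change ± SE of each of the 41 measured members (rows, grouped by role) in combination against perifosine cells (purple) and in sorafenib against control cells (orange). Most points lie left of 0 in both colours, RRM2 farthest left in sorafenib against control at -0.66. LIG1, CDC6, TK1, GINS1, RPA3, RFC4, PRIM1, DTL, POLE2 and PRIM2 lie left of 0 only in purple. RPA2, CHAF1B and CDT1 lie left of 0 only in orange, and ORC6 lies at 0 in orange and right of it in purple.

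The difference between these changes, tested as an interaction, called no member and no gene (smallest limma adjusted p over all genes 0.376, with 478 genes lower and 546 higher at an unadjusted p of 0.05). The members' median interaction was 0.01. LIG1, the ligase that seals lagging-strand fragments, had the smallest p among the members. It had log2 signals of 11.09, 11.10 and 11.04 in combination cells, 11.31, 11.46 and 11.18 in sorafenib cells, 11.47, 11.48 and 11.33 in perifosine cells, and 11.31, 11.22 and 11.26 in control cells. All 3 combination arrays were below the other 9. The change was -0.36 ± 0.10 in combination against perifosine cells and 0.06 ± 0.10 in sorafenib against control cells, and the interaction was -0.41 ± 0.15 (limma adjusted p = 0.609). CDC6 had an interaction of -0.70 ± 0.29 and TK1, thymidine kinase, one of -0.42 ± 0.18 (limma adjusted p = 0.64 and 0.645). The CDC6 probe was not above background on combination A, at 6.53, beside 7.21 and 7.40 on combination B and C. For RRM2 the interaction was 0.17 ± 0.19.

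Of the origin licensing factors, ORC1, the largest subunit of ORC, had the largest change. It had log2 signals of 8.96, 9.24 and 9.11 in combination cells, 9.04, 9.41 and 9.20 in sorafenib cells, 9.91, 9.13 and 9.58 in perifosine cells, and 9.45, 9.69 and 9.61 in control cells. All 6 arrays with sorafenib were below the control arrays, while perifosine B lay among them. The change over 6 against 6 arrays was -0.40 ± 0.12 (limma adjusted p = 0.0939). Of the 12 fits with 1 array left out, only that without perifosine B called it, at -0.50 (limma adjusted p = 0.0185). Without perifosine A the change was -0.31, and over the 12 fits the limma adjusted p reached 0.182. CDC6, which loads MCM with ORC, had a change of -0.21 ± 0.14 and CDT1, its partner in loading, one of -0.13 ± 0.13. ORC6, the smallest ORC subunit, had log2 signals of 15.92, 15.78 and 15.70 in combination cells, 15.76, 15.79 and 15.82 in sorafenib cells, 15.74, 15.71 and 15.67 in perifosine cells, and 15.83, 15.79 and 15.76 in control cells. Its perifosine arrays were below all sorafenib and control arrays, the other pairs of groups overlapped, and its change over 6 against 6 arrays was 0.05 ± 0.07.

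All 6 subunits of the MCM helicase, MCM2 to MCM7, had changes below 0 with sorafenib, between -0.27 and -0.10 over 6 against 6 arrays, and none was called. MCM2 had log2 signals of 12.12, 12.14 and 12.11 in combination cells, 12.33, 12.61 and 12.08 in sorafenib cells, 12.56, 12.50 and 12.50 in perifosine cells, and 12.46, 12.50 and 12.41 in control cells. The combination arrays lay close together below all perifosine and control arrays, and the sorafenib arrays spread from below to above both. Its change over 6 against 6 arrays was -0.26 ± 0.09 (limma adjusted p = 0.123). Of the 12 fits with 1 array left out, only that without sorafenib B called it, at -0.33 (limma adjusted p = 0.0493). Without sorafenib C the change was -0.19, and over the 12 fits the limma adjusted p reached 0.216. MCM4 had 12.31, 12.51 and 12.25 in combination cells, 12.51, 12.57 and 12.22 in sorafenib cells, 12.81, 12.65 and 12.76 in perifosine cells, and 12.69, 12.38 and 12.69 in control cells. Its combination and sorafenib arrays were below all perifosine arrays, and its change over 6 against 6 arrays was -0.27 ± 0.09 (limma adjusted p = 0.134). MCM3 had 15.18, 15.23 and 15.46 in combination cells, 15.32, 15.28 and 15.07 in sorafenib cells, 15.42, 15.36 and 15.38 in perifosine cells, and 15.35, 15.16 and 15.45 in control cells. Its sorafenib arrays were below its perifosine arrays, the other pairs of groups overlapped, and its change was -0.10 ± 0.08 (limma adjusted p = 0.605).

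The factors that turn the loaded ring into a working helicase are CDC45, MCM10 and the 4 GINS subunits, and none was called. Over 6 against 6 arrays the changes of all but GINS1, which has no settled direction there, were -0.22 to -0.10. CDC45 had log2 signals of 13.41, 13.27 and 13.35 in combination cells, 13.36, 13.29 and 13.21 in sorafenib cells, 13.44, 13.24 and 13.54 in perifosine cells, and 13.46, 13.35 and 13.46 in control cells. Its groups overlapped, and its change was -0.10 ± 0.08. GINS3 had 10.88, 10.84 and 10.78 in combination cells, 10.94, 10.85 and 10.68 in sorafenib cells, 10.94, 10.89 and 11.18 in perifosine cells, and 10.91, 11.02 and 11.15 in control cells. Its combination arrays were below all arrays of perifosine and of control cells, and its change was -0.19 ± 0.08 (limma adjusted p = 0.254). GINS4 had 8.76, 8.41 and 8.34 in combination cells, 8.26, 8.64 and 8.62 in sorafenib cells, 8.92, 8.84 and 8.75 in perifosine cells, and 8.77, 8.60 and 8.45 in control cells. Its sorafenib arrays were below its perifosine arrays, and its change over 6 against 6 arrays was -0.22 ± 0.10 (limma adjusted p = 0.28).

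GINS1 was above background on none of the combination arrays, on all 3 sorafenib arrays, on 1 perifosine array and on 2 control arrays, so its combination level is a bound. On these arrays the combination mean was at least 1.27-fold below the sorafenib mean, and the difference was not called (fitted change -0.82 ± 0.27, limma adjusted p = 0.786). At the bound it was 1.14-fold below the control mean, also not called (fitted change -0.67 ± 0.27, limma adjusted p = 0.332). That 1.14 is no minimum, since only 2 of the 3 control arrays were above background. Against perifosine cells no direction can be given, since their mean log2 signal of 6.57 was below the bound of 6.72. The bound takes, on each combination array, the higher of the probe's signal and the lowest signal above background. With GINS1 at its bound, the members' median change in combination against perifosine cells was -0.11 with 36 members below 0. Over 6 against 6 arrays 37 were below 0, and the medians of the other 6 comparisons did not move.

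PCNA, the sliding clamp, and the RFC subunits that load it had changes of -0.23 to 0.03 over 6 against 6 arrays. RFC3 had log2 signals of 11.64, 11.93 and 11.76 in combination cells, 11.62, 11.37 and 11.78 in sorafenib cells, 11.92, 11.82 and 11.80 in perifosine cells, and 12.08, 11.77 and 12.09 in control cells. The sorafenib arrays were below the perifosine arrays and overlapped the control arrays at 1 sample. Its change over 6 against 6 arrays was -0.23 ± 0.09 (limma adjusted p = 0.212). RFC4 had 13.60, 13.13 and 13.58 in combination cells, 13.53, 13.50 and 13.52 in sorafenib cells, 13.46, 13.51 and 13.49 in perifosine cells, and 13.35, 13.53 and 13.31 in control cells. These groups overlapped, with combination B the lowest array, and the change was 0.03 ± 0.09. PCNA itself had a change of -0.09 ± 0.09.

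Among the polymerases and primase, POLA1, the catalytic subunit of polymerase alpha that extends the RNA primer, was the other member beside RRM2 with all arrays with sorafenib below all arrays without it, a pattern that 1.39% of all genes showed. It had log2 signals of 10.03, 10.06 and 10.13 in combination cells, 10.13, 10.12 and 9.58 in sorafenib cells, 10.32, 10.22 and 10.43 in perifosine cells, and 10.53, 10.39 and 10.43 in control cells. Sorafenib C was the lowest of the 12 arrays. The change over 6 against 6 arrays was -0.38 ± 0.10 and missed the threshold (limma adjusted p = 0.0525). None of the 12 fits with 1 array left out called it, with limma adjusted p from 0.053 to 0.122. Without sorafenib C the change was -0.29. POLA2, its accessory subunit, had a change of -0.14 ± 0.10, and POLD1, the catalytic subunit of polymerase delta, one of -0.15 ± 0.08. POLE, the catalytic subunit of polymerase epsilon, had a change of -0.09 ± 0.09. PRIM1, the catalytic subunit of primase, had log2 signals of 12.02, 11.77 and 12.10 in combination cells, 11.98, 12.18 and 11.85 in sorafenib cells, 11.95, 11.92 and 12.10 in perifosine cells, and 12.02, 11.77 and 12.01 in control cells. Its groups overlapped, with a change of 0.02 ± 0.09.

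The other enzymes of nucleotide supply had smaller changes than RRM2. RRM1, the large subunit of ribonucleotide reductase, had log2 signals of 14.59, 14.62 and 14.58 in combination cells, 14.77, 14.73 and 14.59 in sorafenib cells, 14.82, 14.88 and 14.78 in perifosine cells, and 14.73, 14.66 and 14.82 in control cells. Its combination arrays were below all perifosine and control arrays, and its sorafenib arrays were below the perifosine arrays and overlapped the control arrays. The change over 6 against 6 arrays was -0.14 ± 0.07 (limma adjusted p = 0.318). TYMS, thymidylate synthase, had a change of -0.16 ± 0.09 and TK1, which salvages thymidine, one of -0.10 ± 0.09.

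FEN1, the nuclease that trims the flaps of lagging-strand fragments, had log2 signals of 13.52, 13.34 and 13.42 in combination cells, 13.60, 13.43 and 13.10 in sorafenib cells, 13.82, 13.34 and 13.77 in perifosine cells, and 13.72, 13.71 and 13.73 in control cells. All 6 arrays with sorafenib were below the control arrays, and perifosine B lay among them. The change over 6 against 6 arrays was -0.28 ± 0.10 (limma adjusted p = 0.174). For LIG1 it was -0.15 ± 0.07 (limma adjusted p = 0.3). The RPA2 and RPA3 subunits of the protein that coats single-stranded DNA had changes of -0.09 ± 0.09 and -0.01 ± 0.10.

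E2F1, the transcription factor of the G1/S genes, was dim. It was above background on 1 combination, 1 sorafenib, 3 perifosine and 3 control arrays. Its log2 signals were 6.67, 6.42 and 7.02 in combination cells, 6.89, 6.48 and 6.57 in sorafenib cells, 6.81, 6.79 and 6.73 in perifosine cells, and 7.36, 7.18 and 6.92 in control cells. Sorafenib and perifosine arrays were both below all control arrays. The change over 6 against 6 arrays was -0.29 ± 0.11 (limma adjusted p = 0.194), and in sorafenib against control cells -0.51 ± 0.16 (limma adjusted p = 0.159). UHRF1, which recruits the maintenance DNA methyltransferase to newly copied DNA, had 13.69, 13.65 and 13.64 in combination cells, 13.68, 13.57 and 13.65 in sorafenib cells, 13.95, 13.79 and 13.82 in perifosine cells, and 13.85, 13.64 and 13.84 in control cells. Its combination and sorafenib arrays were below all perifosine arrays, and its change was -0.17 ± 0.07 (limma adjusted p = 0.227). CHAF1A and CHAF1B, subunits of the histone chaperone CAF-1, had changes of -0.10 ± 0.10 and -0.03 ± 0.10, and DTL, which marks CDT1 for destruction in S phase, one of -0.10 ± 0.09.

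Probes of the same gene gave a second reading for 13 members, which had 16 passing probes besides the brightest one used above. Over 6 against 6 arrays, 15 of these 16 had a change below 0, with a median of -0.24, where the brightest probes of the same 13 genes had a median of -0.15. In 13 of the 16 the change was more negative than that of the brightest probe. Over all genes with several probes the median was 0.00 for the 3648 brightest and -0.02 for the 4885 others. In a fit of 18401 single probes, added after the data were seen, 2 of 57 member probes were called, both lower, where 3.17% of all probes were called. They were the RRM2 probe (limma adjusted p = 0.0059) and the dimmer FEN1 probe, which fell by 0.38 ± 0.09 on the log2 scale (limma adjusted p = 0.0425), while the brighter FEN1 probe had a change of -0.28 ± 0.11.

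MCM10 and MCM3 read differently by probe as well. The second MCM10 probe had a change of -0.36 ± 0.10 (limma adjusted p = 0.0716), beside -0.15 ± 0.09 for the first, and the second MCM3 probe -0.31 ± 0.10 (limma adjusted p = 0.101), beside -0.10 ± 0.08. Both other RFC3 probes, at -0.24 ± 0.07 and -0.30 ± 0.10, lay near the first at -0.23. The other PCNA probes had changes of -0.22 ± 0.08 and -0.23 ± 0.12 (limma adjusted p = 0.174 and 0.361), beside -0.09 ± 0.09 for the brightest. For MCM7 the other probes had -0.32 ± 0.16 and -0.11 ± 0.13 (limma adjusted p = 0.333 and 0.728), beside -0.16 ± 0.08. The second POLA1 probe had a smaller change, -0.15 ± 0.12 (limma adjusted p = 0.586), so the value near the threshold above rests on 1 of its 2 probes. RFC2 had the 1 probe above 0, at 0.07 ± 0.11. RRM2 had a single probe. The second RFC5 probe was above background on no array and gives no reading.

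**Figure D4:**
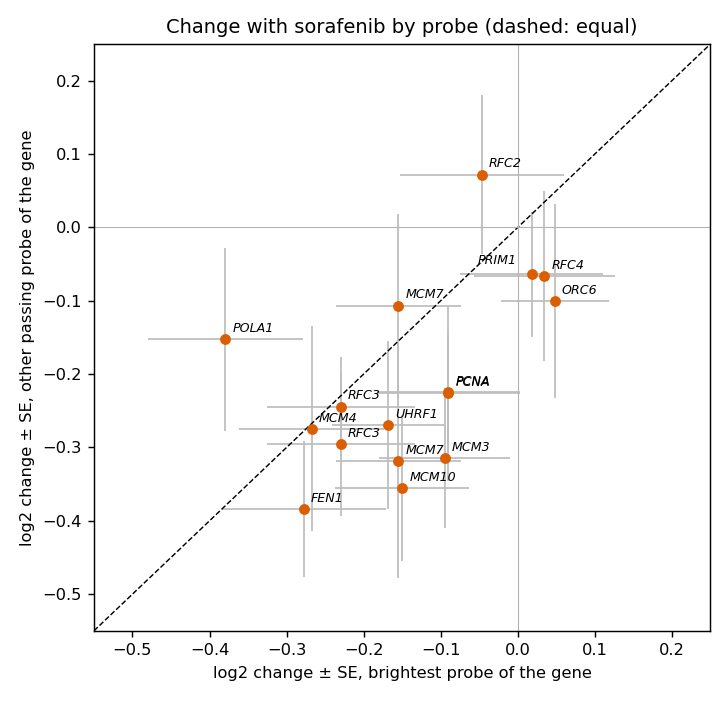
Log2 change ± SE over the 6 arrays with sorafenib against the 6 without, for each of 16 dimmer passing probes (vertical axis) against the brightest probe of the same gene (horizontal axis), 13 genes. The dashed line marks equal changes. Of the 16 points 13 lie below it, and 1, RFC2, lies above 0 on the vertical axis.

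Members with an E2F match in the promoter window had a median change over 6 against 6 arrays of -0.13 (28 genes), and those without had one of -0.12 (8 genes). The range was -0.40 to 0.03 with a match and -0.58 to 0.05 without. RRM2 has the lowest value without a match and ORC1 the lowest with one.

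Other genes of the cell cycle, from lists of related genes, were read in the same fit. Of 44 further replication genes 42 were tested, and 1 fell with sorafenib over 6 against 6 arrays, MCMBP, an MCM-binding protein, by 0.28 ± 0.07 on the log2 scale (limma adjusted p = 0.0454), and none rose. That is 2.38% of the 42, where 1.21% of all genes fell. Their median was -0.08, with 34 of 42 below 0. Of 17 E2F family members and partners 16 were tested, and 1 fell, CDC25A, a phosphatase that activates cyclin-dependent kinases, by 0.40 ± 0.10 (limma adjusted p = 0.0483), with a median of -0.15. That is 6.25% of the 16, beside the same 1.21%. Of 34 mitosis genes none was called, and the median was -0.06, with 25 below 0. Each of these medians stands beside -0.00 over all genes.

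The replication-type histone genes, which supply histones for newly copied DNA, had a lower median than these lists. Of 51 such genes 48 had a named probe and 38 were tested, and 12 (31.6%) fell with sorafenib over 6 against 6 arrays, none rose, and the median was -0.29, where 1.21% of all genes fell. The linker histone gene H1-2 fell by 0.87 ± 0.10 on the log2 scale (limma adjusted p = 0.000466), H3C10 by 0.64 ± 0.10, H2BC21 by 0.60 ± 0.10 and H4C8 by 0.59 ± 0.08 (limma adjusted p = 0.0046, 0.0046 and 0.0014). Many of these genes are near-identical copies, so a probe may read more than 1 of them. In sorafenib against control cells 2 of the 38 fell (5.26%, where 0.281% of all genes did), in combination against control cells 3 (7.89%, where 0.155% did), and in combination against perifosine cells 1 (2.63%, where 0.163% did). Of 23 housekeeping genes tested, 1 (4.35%), the proteasome subunit PSMB2, fell by 0.37 ± 0.07 (limma adjusted p = 0.0112), and the median was -0.02.

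**Figure D5:**
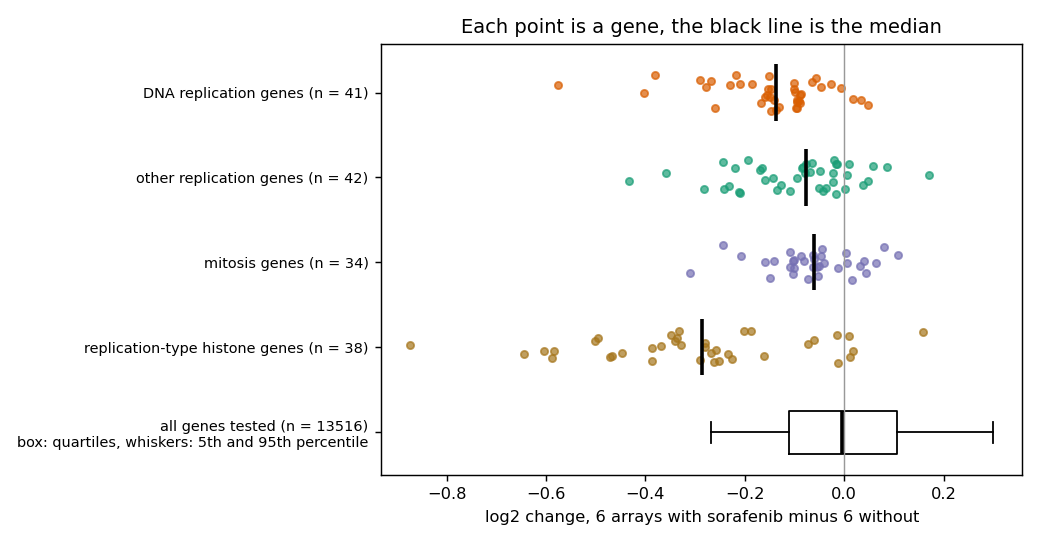
Log2 change over the 6 arrays with sorafenib minus the 6 without for each gene (points) of the 41 measured replication genes, 42 further replication genes, 34 mitosis genes and 38 replication-type histone genes, with medians as black lines. The bottom box gives the quartiles of all 13516 genes, with whiskers at the 5th and 95th percentile. The medians run from -0.29 for the histone genes through -0.14 for the replication genes to -0.06 for the mitosis genes.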

How the data were processed

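RNA of 12 HDLM-2 samples was measured on Illumina arrays, and groups and replicate letters come from the sample titles. The values are the authors' deposited intensity values, linear, 1 per probe and array, for 48803 probes. BeadStudio is named without a version in the submitters' processing notes. How the values were normalized: not given in the sources used here. Sorted within each array, the deposited intensities spread between arrays by a median of 0.0519% and at most 1.09%, so they had been quantile normalized between arrays, and the lowest was 109.7 on every array, so background had not been subtracted to 0. A deposited table of non-normalized signals has 24 columns named as no sample is labelled. Those columns were left out.

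From these, limma 3.58.1 (R 4.3.3) corrected the background with normexp (offset 16, fitted with no control probes), normalized the arrays by quantiles and took log2. A probe was kept if on at least 3 of 12 arrays it was above a threshold set on each array at the upper 5% point of a normal distribution around the mode of the signal (225.5 to 225.6). This kept 25035 probes, 18401 of them with 1 gene symbol. Of all probes, 28098 had 1 symbol, 13 several and 20692 none in the platform annotation, and 28059 matched the RefSeq gene table (GRCh38.p14), used for names only. A gene is its brightest passing probe. One lmFit model with a mean per group (eBayes, total df 13.1) gave 7 comparisons, among them the 6 arrays with sorafenib against the 6 without and the interaction, with Benjamini-Hochberg adjustment within each. The fit was tested on simulated data. Errors are SE unless called SD, and the number of arrays limits the precision.

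The members, the lists and the tests were chosen with earlier results of these data known. Values on every array are given for members called in any comparison, for the 12 with the largest moderated t over 6 against 6 arrays, and for the brightest member of each role. Promoters came from RefSeq. Alternatives to the background correction, normalization, filter, probe choice, array weights, variance trend, samples in the fit and replicate letters were tried. Slides and scan dates were not known here.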

Additional observations from a re-analysis of the deposited data

How the results depend on the processing

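RRM2 over the 6 arrays with sorafenib against the 6 without stayed called in all 22 alternatives run, and no result named here changed direction in any of them where it was called. Against the control, RRM2 lost its call with centring on housekeeping genes (limma adjusted p = 0.117), no filter (0.0872), only the 2 groups compared (0.121), the replicate block (0.0766), and without perifosine B and sorafenib C, the arrays of lowest weight (0.0712). The cause was not tested, save that the smaller fits hold fewer samples. POLA1, ORC1, FEN1, RFC3 and MCM2 passed over 6 against 6 arrays under some alternatives, POLA1 for instance with no background correction (0.0165) and ORC1 with array weights (0.0174).

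Members called, 1 in sorafenib against control, became 2 with no background correction and 0 in those 5 alternatives. In combination against control they became 1 with no background correction, a filter on mean signal, array weights or a variance trend, and in combination against perifosine 1 with no correction, weights or a trend. Over 6 against 6 arrays, 1 became 3 with no correction, 2 with the mean filter, 4 with weights, 3 with a trend, and 3 with the mean of a gene's probes and without perifosine B and sorafenib C. The F test called 0 members with housekeeping centring, no filter, the replicate block and without those 2 arrays. Leaving out 1 array gave 0 to 1 members by the F test, in sorafenib against control and in combination against control, and 1 to 2 over 6 against 6 arrays.

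Of all genes, 112 were called in sorafenib against control, and 251 with no background correction, 50 with housekeeping centring, 40 with no filter, 239 with array weights, 230 with a variance trend, 23 with only the groups compared, 48 with the replicate block and 72 without the 2 arrays. In combination against control, 85 were called, and 203 with no correction, 55 with no filter, 208 with weights, 186 with a trend, 54 with the block and 136 without the 2 arrays. In combination against perifosine, 97 were called, and 247 with no correction, 49 with centring, 41 with no filter, 289 with weights, 250 with a trend, 23 with only the groups compared and 45 with the block. Over 6 against 6 arrays, 515 were called, and 815 with no correction, 238 with centring, 247 with no filter and 979 with weights. Leaving out 1 array gave 37 (without control C) to 167 (without perifosine B), 34 (without combination C) to 116 (without perifosine B), 24 (without combination C) to 100 (without sorafenib C), and 274 (without control A) to 507 (without perifosine B).

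Housekeeping centring moved the median of all genes over 6 against 6 arrays by -0.04 and the members' medians to -0.15 in sorafenib against control, -0.20 in combination against control and -0.18 over 6 against 6 arrays. The mean of a gene's probes gave -0.17 in combination against perifosine, -0.044 in combination against sorafenib and -0.071 for the interaction. Without the 2 arrays the last 2 were -0.054 and -0.074, and with weights the interaction was -0.055. Leaving out 1 array gave -0.14 to -0.10 in sorafenib against control, -0.025 to 0.022 in perifosine against control, -0.19 to -0.13 in combination against control, -0.17 to -0.12 in combination against perifosine, -0.054 to 0.0082 in combination against sorafenib, -0.15 to -0.12 over 6 against 6 arrays and -0.064 to 0.024 for the interaction. A CHR match lay in 0% of the 37 members with a promoter in a 200-base window, against 10.3% of all promoters.

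The replicate letters share only a letter. Deviations from group means correlated at -0.24 to 0.21 in 18 same-letter pairs of arrays, 2 of them over 0.1. In 36 pairs with different letters they correlated at -0.35 to 0.39, 5 of them over 0.1. The highest was perifosine B with sorafenib C, the arrays of lowest weight. Only 3 of 12 arrays correlated best with an array of their own letter. Dim probes limit GINS1, E2F1 and CDC6.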
